A study of Mus musculus with 24 samples.

Results

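Serum response factor (SRF) target genes of the actin cytoskeleton were followed in mouse embryonic stem cells on soft and stiff hydrogels while 1 of the 2 inhibitors of their medium was taken away. The set was made by symbol and held 10 genes: Srf itself, the actins Actb, Actg1 and Acta2, the actin-binding genes Cnn1, Cnn2, Tagln, Tpm1 and Flna, and the myosin light chain gene Myl9. All 10 were found among the 35022 genes counted after PD03 removal and among the 48709 genes counted after CHIRON removal. E14 cells (strain and genotype given as 129m wt) had been kept for 12 h on StemBond hydrogels, polyacrylamide gels that carry tethered fibronectin, in 2i+LIF. This medium holds PD03, an inhibitor of the kinase MEK, at 1 µM, CHIRON, an inhibitor of the kinase GSK3, at 3 µM, and the cytokine LIF. At 0 h the medium was changed either to CHIRON+LIF (PD03 removal) or to PD03+LIF (CHIRON removal), and RNA was taken at 0, 2 and 12 h from soft and from stiff gels. The 0 h groups were still in 2i+LIF and served as controls, and LIF was present in every group. Each of the 2 experiments thus had 6 groups of 2 libraries, 24 in all, from 1 cell line. The study describes both removals as done in triplicate, but the labels do not say which libraries of either experiment came from separate cultures, so p-values measure only the spread between these libraries, which may be technical.

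SRF is a transcription factor that binds a short AT-rich element, the CArG box, and works with either of a pair of partner families. The myocardin-related factors (MRTF, encoded by Mkl1 and Mkl2) are held in the cytoplasm by monomeric actin and enter the nucleus when actin polymerises, a step promoted by adhesion to the substrate, and with SRF they drive actin and actin-binding genes. The ternary complex factors (TCF, encoded by Elk1, Elk3 and Elk4) are phosphorylated by ERK, the kinase below MEK, and with SRF they drive immediate early genes such as Egr1 and Fos. Srf is itself an SRF target. Smooth muscle cells and fibroblasts express Acta2, Cnn1, Tagln and Myl9 highly, whereas Actb, Actg1, Tpm1 and Flna are used by nearly all cells.

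Of the 10 genes, 8 had a promoter entry in RefSeq (GRCm38.p6), a window of 300 bases that runs from 250 before to 50 after the annotated start, and the CArG box was present in 4 of the 8. For comparison, 1.63% of all 32851 windows, or 1.81% of the 27025 symbols, held at least 1 box. The box searched for was 10 bases long: CC, then only A or T, then GG. Boxes that depart from this pattern were not searched for. The search covered both strands at once, since the reverse complement of such a box is again such a box. The 4 promoters with a box are shown because Srf, Actg1 and Cnn2 are among the genes called below, and Myl9 completes the members with a box. Each is printed 5′ to 3′ from the upstream end of its window to the last base before the gene's first annotated base, with the boxes in capitals; the regions are chr17:46556176-46556412 (minus strand), chr11:120348543-120348745 (minus), chr10:79988350-79988583 (plus) and chr2:156775214-156775419 (plus).
Srf: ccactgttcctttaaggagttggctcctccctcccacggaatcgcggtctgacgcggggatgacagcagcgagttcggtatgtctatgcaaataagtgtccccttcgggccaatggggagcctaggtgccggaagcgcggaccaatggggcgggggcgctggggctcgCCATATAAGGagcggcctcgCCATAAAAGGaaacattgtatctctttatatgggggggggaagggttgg
Actg1: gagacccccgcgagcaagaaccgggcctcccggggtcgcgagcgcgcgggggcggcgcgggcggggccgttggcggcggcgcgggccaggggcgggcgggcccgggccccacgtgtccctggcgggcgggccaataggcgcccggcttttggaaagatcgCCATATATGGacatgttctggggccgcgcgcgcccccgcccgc
Cnn2: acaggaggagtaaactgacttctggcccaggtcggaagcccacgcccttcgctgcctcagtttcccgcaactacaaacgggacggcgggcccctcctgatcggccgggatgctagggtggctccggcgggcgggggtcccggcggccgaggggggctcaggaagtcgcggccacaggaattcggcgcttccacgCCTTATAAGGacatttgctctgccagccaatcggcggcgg
Myl9: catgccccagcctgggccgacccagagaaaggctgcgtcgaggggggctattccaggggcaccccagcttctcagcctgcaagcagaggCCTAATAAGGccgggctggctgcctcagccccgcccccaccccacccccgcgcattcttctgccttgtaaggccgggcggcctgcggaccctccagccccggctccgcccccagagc
Srf had 2 boxes, CCATATAAGG and CCATAAAAGG, which began 82 and 62 bases before the RefSeq start, and only 6 of all windows held 2 or more. The box of Actg1, CCATATATGG, began 90 bases before the start, that of Cnn2, CCTTATAAGG, 56 bases before it, and that of Myl9, CCTAATAAGG, 161 bases before it. Acta2, Cnn1, Tpm1 and Flna had no match to the pattern in their windows, which does not exclude a box that departs from it. In addition, the RefSeq start lay 3286 bases inside the annotated gene for Flna, 217 for Acta2 and 193 for Tpm1. The window of Flna thus held no sequence upstream of the gene and those of Acta2 and Tpm1 little of it, so nothing follows about their promoters. Actb and Tagln were without an entry.

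**Figure D1:**
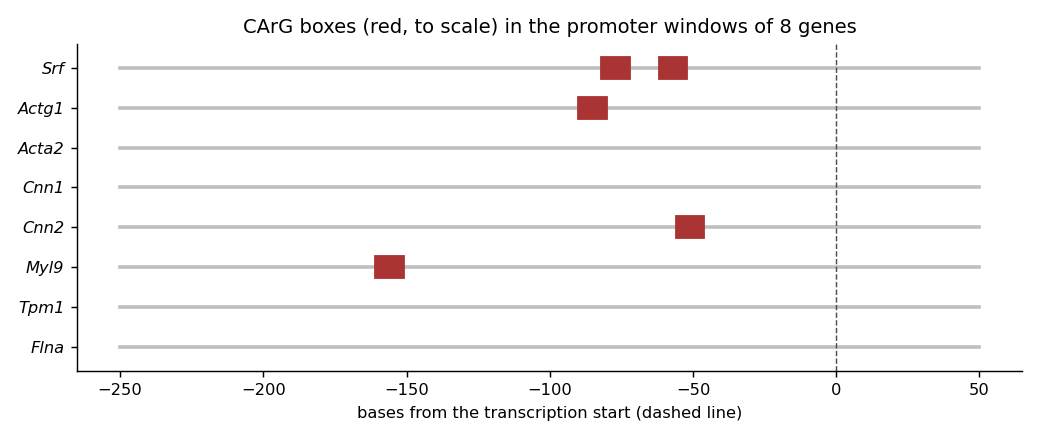
Position of the CArG boxes in the RefSeq promoter windows of 8 genes. Each grey line is 1 window of 300 bases, and the horizontal axis gives bases from the annotated start (dashed line). Each red block is 1 box drawn to scale. Srf has 2, Actg1, Cnn2 and Myl9 have 1 each, and the other 4 windows have no match to the pattern searched for.

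Sequencing gave 16222196 to 26442153 counts in the 12 libraries of PD03 removal and 19393787 to 31111260 in 11 libraries of CHIRON removal. The remaining library of CHIRON removal, 1 of the pair from stiff gels at 2 h, was left out as it was by the study because it held few reads; its partner stands alone and was taken to vary like the other groups. The 10 genes together took 0.397% to 0.504% of all counts after PD03 removal and 0.796% to 0.977% after CHIRON removal. The experiments were counted in separate tables, so levels were compared only within each. Markers of embryonic stem cells summed to 5960 to 7650 CPM (counts per 1000000 counts of tested genes) and 5390 to 5940 CPM in the respective experiments, with 8 of 8 tested. By contrast, 8 fibroblast markers summed to 9.34 to 13.3 CPM and 12.8 to 27.4 CPM, with 4 of the 8 at 10 counts or fewer in every library of either experiment. Markers of smooth muscle summed to 20.3 to 35.7 CPM after PD03 removal and 65.8 to 112 CPM after CHIRON removal. In bulk RNA, fewer cells of a type and less RNA per cell cannot be told apart.

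Levels of the 10 genes spanned several orders of magnitude. Per kilobase of exon, group means after PD03 removal were 1570 to 1880 CPM for Actb, the cytoplasmic beta-actin, and 176 to 307 CPM for Actg1, the cytoplasmic gamma-actin. Flna, the filamin that cross-links actin filaments, came next at 58.6 to 78.5 CPM per kilobase, followed by Srf at 19.6 to 25.1, the tropomyosin gene Tpm1 at 10.9 to 15, the calponin gene Cnn2 at 3.19 to 5.39 and Acta2, the smooth muscle alpha-actin, at 1.6 to 2.61. Ranges of group means did not overlap between any neighbours among these 7 genes. The other three, Myl9, Tagln (transgelin) and Cnn1 (the smooth muscle calponin), were at 0.0664 to 0.314, 0.0123 to 0.075 and 0 to 0.074 CPM per kilobase, and their ranges overlapped. After CHIRON removal the order was Actb (3020 to 3530 CPM per kilobase), Actg1 (473 to 544), Flna (38.3 to 46.3), Srf (29.4 to 36.8), Cnn2 (12.4 to 15.5), Tpm1 (9.03 to 10.4) and Myl9 (0.399 to 1.43), again without overlap between neighbours. Acta2 (0.148 to 0.274), Tagln (0.0466 to 0.221) and Cnn1 (0 to 0.0576) closed the order with overlapping ranges. The actin genes are nearly identical in their coding sequence, so reads may have been split between them, and their single values are uncertain to that extent.

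Testing was by edgeR's quasi-likelihood method on all protein-coding genes, with Benjamini-Hochberg adjustment and a threshold of 0.05. After PD03 removal 7 of the 10 genes had enough counts to be tested. Cnn1 had 0 to 4 counts per library, Tagln 0 to 3 and Myl9 0 to 9, and a count of 3, the limit that a count of 0 allows, was worth 0.147 to 0.247 CPM. No statement on these 3 genes could be made at this depth.

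At 2 h of PD03 removal Srf and Actb passed as higher on both gels, Actg1 on stiff gels and Flna on soft gels. Srf rose on both gels: it measured 57.9 and 59.1 CPM on soft gels at 0 h against 69.6 and 69.2 CPM at 2 h, and 59.4 and 58.8 CPM on stiff gels against 72.6 and 72.5 CPM. All 4 libraries at 2 h lay above all 4 at 0 h. The share of all tested genes with such separate groups was not counted at any time. Separation of groups is therefore given as a description and adds no support to a call. Its log2 fold change was 0.25 ± 0.07 (SE) on soft gels (1.19-fold, adjusted p = 0.039) and 0.30 ± 0.06 on stiff gels (1.23-fold, adjusted p = 0.0054). Actb went from 4300 and 4230 CPM to 4650 in both libraries on soft gels, and from 4530 and 4370 CPM to 5030 and 5050 CPM on stiff gels. The groups were again separate, with log2 fold changes of 0.12 ± 0.03 (adjusted p = 0.03) and 0.18 ± 0.03 (adjusted p = 0.00049). Actg1 rose on stiff gels, from 728 and 709 to 824 and 807 CPM (0.18 ± 0.04, adjusted p = 0.0068). On soft gels Actg1 measured 686 and 709 CPM at 0 h and 753 and 788 CPM at 2 h, a log2 fold change of 0.14 ± 0.04 that missed the threshold (adjusted p = 0.061; 0.03 with no filter on low counts). For Flna the call was made on soft gels, where it rose from 627 and 651 to 713 and 762 CPM (0.21 ± 0.05, adjusted p = 0.037). Its stiff libraries, 624 and 682 CPM at 0 h and 680 and 768 CPM at 2 h, overlapped (0.15 ± 0.05, adjusted p = 0.18), but Flna passed there with no filter on low counts (adjusted p = 0.026) or without replicate 1 at 2 h (0.23, adjusted p = 0.025). Neither gene is thereby shown to respond on 1 gel alone.

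In all, 3 of 7 tested genes rose on soft gels at 2 h and 3 of 7 on stiff gels, where 1.96% and 2.73% of all 13424 tested genes were called, and none of the 7 fell on either gel. The median log2 fold change of the 7 was 0.144 on soft and 0.147 on stiff gels, beside medians of -0.002 and -0.003 over all tested genes. The soft calls were close to the threshold: DESeq2 called 0 of the 7, and leaving out any 1 of the 4 soft libraries at 0 or 2 h lost all 3 (adjusted p = 0.15 to 0.26 for Srf, 0.091 to 0.19 for Actb and 0.053 to 0.4 for Flna), while the log2 fold changes stayed at 0.116 or more. On stiff gels DESeq2 called 3 of the 7; the Actb call held without any 1 library, the Srf call was lost without replicate 2 at 0 h (adjusted p = 0.077), and the Actg1 call was lost without that library (adjusted p = 0.13) or without replicate 1 at 2 h (adjusted p = 0.061).

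**Figure D2:**
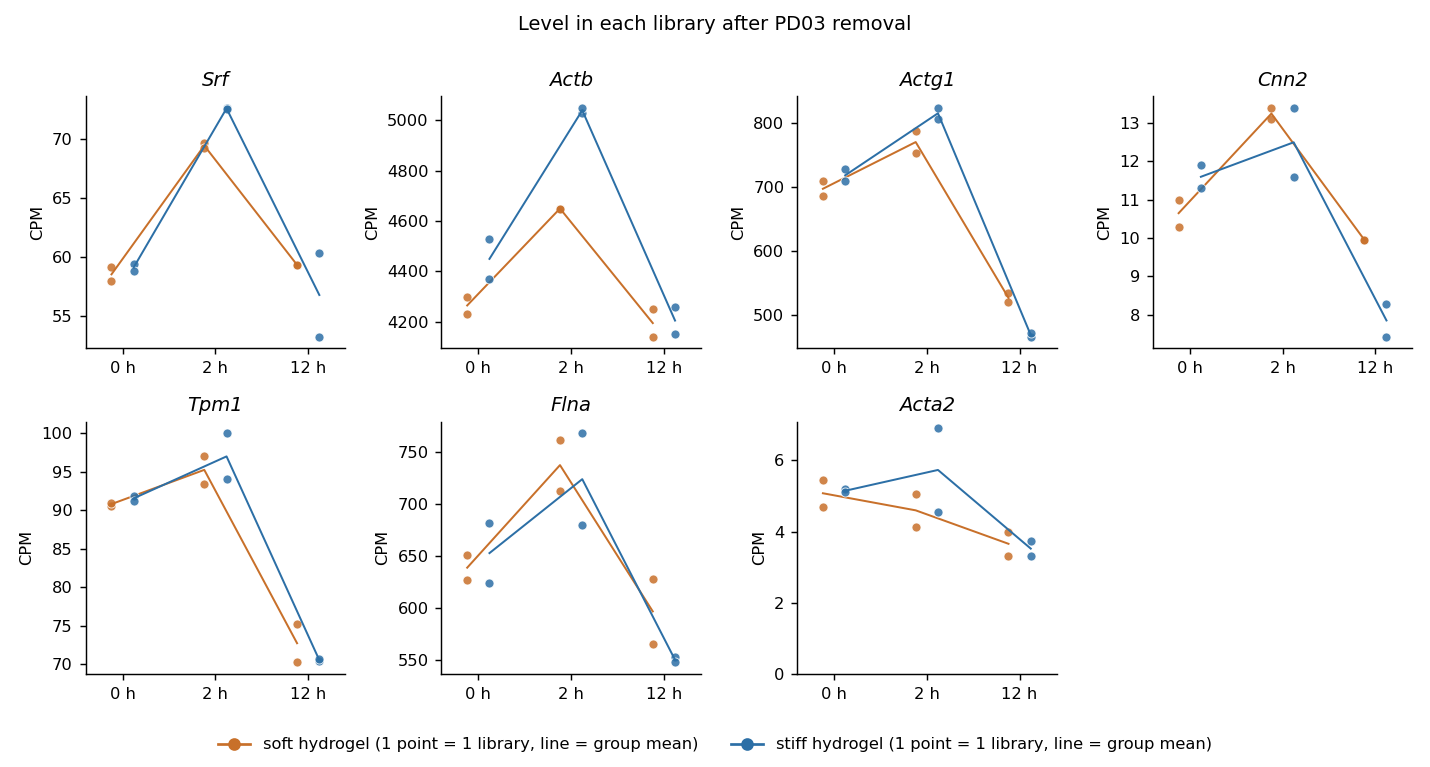
Level (CPM, vertical axes; only that of Acta2 starts at 0) of the 7 tested genes at 0, 2 and 12 h of PD03 removal. Each point is 1 library on soft (orange) or stiff (blue) gels and lines join group means; Srf and Actb peak at 2 h and are back near their 0 h level at 12 h, whereas Actg1 and Tpm1 end below it.

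By 12 h the genes had parted. Srf was back at its starting level, at 59.3 CPM in both soft libraries and at 60.3 and 53.2 CPM on stiff gels. Its log2 fold changes against 0 h were 0.02 ± 0.07 (adjusted p = 0.85) and -0.06 ± 0.07 (adjusted p = 0.54). Actg1 instead fell below its level at 0 h, to 534 and 520 CPM on soft gels (-0.41 ± 0.04, 1.32-fold lower, adjusted p = 9.7e-09) and to 466 and 472 CPM on stiff gels (-0.62 ± 0.04, 1.53-fold lower, adjusted p = 1.4e-12). Tpm1, whose product winds along actin filaments, fell with it, from 90.6 and 91.0 to 70.2 and 75.2 CPM on soft gels (-0.32 ± 0.06, adjusted p = 9.6e-05). On stiff gels Tpm1 went from 91.9 and 91.2 to 70.4 and 70.6 CPM (-0.38 ± 0.06, adjusted p = 8.2e-06). Neither gene had a 12 h library within the range of its 0 h libraries, and both calls on both gels held without any 1 library and under each other setting tried.

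On stiff gels 3 more genes fell at 12 h. Cnn2 decreased from 11.3 and 11.9 to 8.28 and 7.42 CPM (-0.56 ± 0.14, adjusted p = 0.0019). Flna decreased from 624 and 682 to 553 and 548 CPM (-0.25 ± 0.05, adjusted p = 0.00063). The fall of Actb was small, from 4530 and 4370 to 4260 and 4150 CPM (-0.08 ± 0.03, adjusted p = 0.043), and it was lost under 4 of 7 other settings and without 3 of the 4 libraries (adjusted p = 0.067 to 0.3 there). On soft gels the log2 fold changes of Cnn2, Flna and Actb were -0.10 ± 0.13, -0.10 ± 0.05 and -0.02 ± 0.03 (adjusted p = 0.62, 0.18 and 0.62). Acta2, with 40 to 104 counts per library, gave -0.48 ± 0.22 on soft gels (adjusted p = 0.098) and -0.54 ± 0.22 on stiff gels (adjusted p = 0.055). Thus 2 of 7 genes fell on soft gels and 5 of 7 on stiff gels, and none rose, where 29.4% and 38.4% of all tested genes were called in either direction. A share of called genes this large leaves the count on soft gels close to the background. Over the same 12 h, 6 of 8 embryonic stem cell markers fell on either gel, and 3 of 4 tested primitive streak markers rose on either gel, their median log2 fold changes being 1.307 (soft) and 1.629 (stiff). Of the tested markers of other cell types, 1 of 3 for smooth muscle rose on either gel. For fibroblasts 1 of 4 rose on stiff gels, and for primitive endoderm 1 of 3 on soft gels. The part of this shift in the values of the cytoskeletal genes was not tested.

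Between 2 and 12 h most of the tested genes declined. Against 2 h, 6 of 7 tested genes were lower at 12 h on soft gels and 7 of 7 on stiff gels, where 31.4% and 37.5% of all tested genes were called. The median log2 fold change was -0.339 on soft and -0.462 on stiff gels for the 7 genes, and -0.002 and 0.001 for all tested genes. Actg1 declined most steeply in adjusted p, by 0.55 on the log2 scale on soft gels (SE 0.04, adjusted p = 4.4e-11) and by 0.80 on stiff gels (SE 0.04, adjusted p = 8.7e-15). Srf dropped by 0.23 (SE 0.07, adjusted p = 0.0087) and by 0.35 (SE 0.07, adjusted p = 0.00011). Acta2 on soft gels was the gene not called (-0.34 ± 0.23, adjusted p = 0.27). On stiff gels its call (-0.69 ± 0.23, adjusted p = 0.017) was lost without replicate 2 at 2 h (-0.37, adjusted p = 0.3) or without replicate 2 at 12 h (-0.60, adjusted p = 0.11). The Cnn2 call on soft gels was lost without any 1 of the 4 libraries (adjusted p = 0.062 to 0.09) and in DESeq2 (adjusted p = 0.064), and that of Srf without replicate 1 at 2 h (adjusted p = 0.052).

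Whether the gel changed these responses was tested by the difference between the soft and the stiff response. None of the 7 genes passed at 2 h, where 0.00745% of all genes were called, or at 12 h, where 0% were called; DESeq2 called 0 of the 7 at either time. At an unadjusted p under 0.05 the counts were 0 and 2 of the 7, and over all genes 605 and 898. The 2 genes at 12 h were Actg1, whose response was 0.21 ± 0.06 higher on soft than on stiff gels on the log2 scale (adjusted p = 0.43), and Cnn2, at 0.47 ± 0.19 (adjusted p = 0.66). Hence the count of 2 genes that fell on soft gels and 5 on stiff gels does not show that the gels differed.

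**Figure D3:**
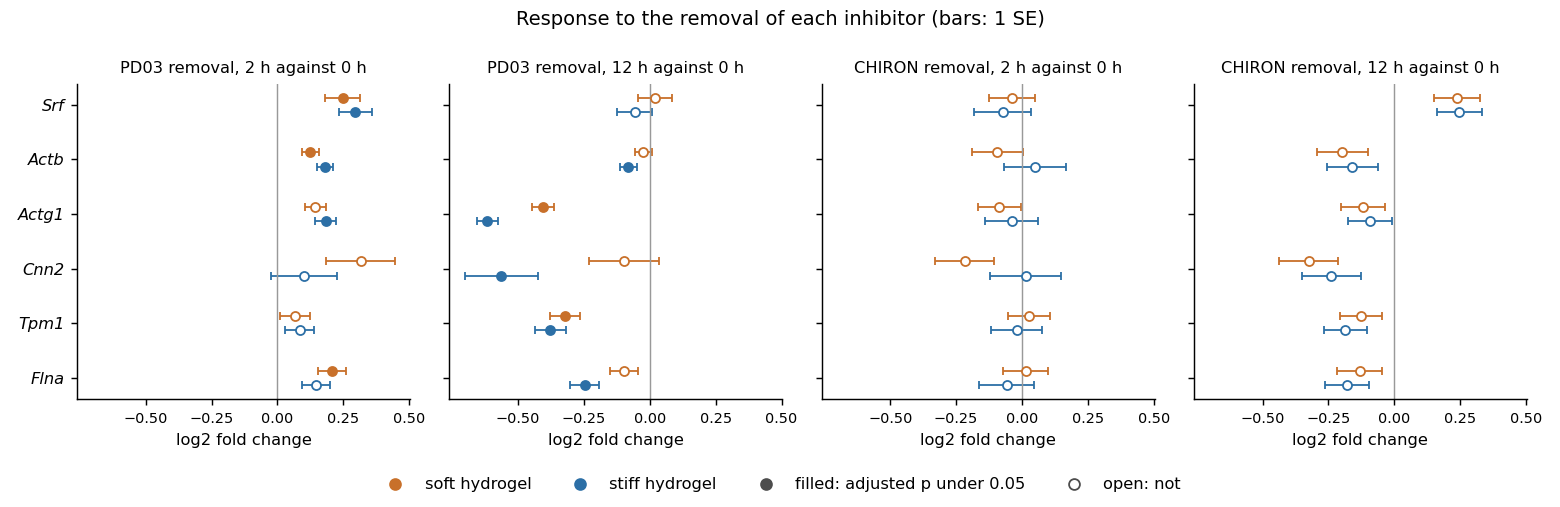
Log2 fold change against 0 h (horizontal axes) for 6 genes at 2 and 12 h of PD03 removal and of CHIRON removal. Points are soft (orange) and stiff (blue) gels, bars are 1 SE and filled points passed an adjusted p of 0.05; filled points lie above 0 at 2 h and below 0 at 12 h of PD03 removal, and there is none after CHIRON removal.

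The direct comparison of soft with stiff gels asks whether stiffness alone shifts genes that are known to follow actin polymerisation. In 2i+LIF at 0 h of PD03 removal 0 of 7 genes differed (0 at an unadjusted p under 0.05, 0 in DESeq2), where 0.0298% of all genes were called. The libraries of Actb, Cnn2 and Tpm1 were lower on soft than on stiff gels without overlap, at log2 fold changes of -0.06, -0.13 and -0.01. The share of all tested genes with such separate groups was not counted, so these separations show no difference between the gels. At 2 h 0 of 7 passed (0.134% of all genes, 1 at an unadjusted p under 0.05, 0 in DESeq2). The gene with the unadjusted p was Actb, which was lower on soft gels at -0.12 ± 0.03 (adjusted p = 0.18), its 2 soft libraries at 4650 CPM lying below 5030 and 5050 CPM. At 12 h 1 of 7 passed, where 0.767% of all genes did (3 of the 7, Actg1, Cnn2 and Flna, at an unadjusted p under 0.05). Actg1 was higher on soft gels, at 534 and 520 CPM against 466 and 472 CPM (0.17 ± 0.04, adjusted p = 0.045), and the groups did not overlap. This call was lost without any 1 of the 4 libraries (adjusted p = 0.2 to 0.3) and when genes of all classes were tested (adjusted p = 0.11). Cnn2 at 12 h measured 9.96 CPM in both soft libraries and 8.28 and 7.42 CPM in the stiff ones (0.34 ± 0.14, adjusted p = 0.41). Srf gave -0.02 ± 0.06, -0.06 ± 0.06 and 0.06 ± 0.07 at the 3 times (adjusted p = 0.98, 0.84 and 0.85), and Tpm1 and Flna stayed between -0.03 and 0.12. The highest of these was Flna at 12 h, with 566 to 628 CPM on soft and 548 to 553 CPM on stiff gels (0.12 ± 0.05, adjusted p = 0.49). Averaged over the 3 times, 0 of 7 genes passed (1.88% of all genes; 1 of the 7, Actb at -0.06 ± 0.02, at an unadjusted p under 0.05 and 0 in DESeq2).

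The genes were followed in the same way after CHIRON removal. Of 9 tested genes, 0 passed on soft gels at 2 h (0.226% of all 14615 tested genes, 0 of the 9 at an unadjusted p under 0.05) and 0 on stiff gels (0.103%, 1 unadjusted). At 12 h 0 passed on soft gels (17.8%, 2 unadjusted) and 0 on stiff gels (16.8%, 4 unadjusted), and DESeq2 also called 0 in each of these comparisons. The median log2 fold change of the 9 at 12 h was -0.131 on soft and -0.16 on stiff gels. Over all tested genes it was -0.014 and -0.009. Srf had its highest values at 12 h. It measured 90.8 and 87.7 CPM on soft gels at 0 h, 95.2 and 78.6 CPM at 2 h, and 104 and 107 CPM at 12 h. On stiff gels it measured 88.2 and 91.0 CPM at 0 h, 85.1 CPM in the lone library at 2 h, and 104 and 108 CPM at 12 h. All 4 libraries at 12 h lay above all 7 earlier ones, with log2 fold changes against 0 h of 0.24 ± 0.09 on soft gels (adjusted p = 0.066) and 0.25 ± 0.09 on stiff gels (adjusted p = 0.061). How many of all tested genes separate in this way was not counted, so the separation does not show that Srf rose. Over these 12 h, 3 of 8 embryonic stem cell markers rose and 3 fell on soft gels, and 5 rose and 3 fell on stiff gels, while 1 of 4 tested primitive streak markers fell on soft and 2 of 4 on stiff gels. Their part in the Srf values was not tested.

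Against 2 h, Srf rose by 0.28 ± 0.09 on soft gels (adjusted p = 0.036), the 1 call among 9 genes where 16.9% of all genes passed. Without replicate 2 at 2 h the value was 0.15 (adjusted p = 0.37), and the call was also lost without either 12 h library (adjusted p = 0.083 and 0.13). On stiff gels the same comparison gave 0.32 ± 0.11 (adjusted p = 0.066) and 0 calls among the 9 (2 at an unadjusted p under 0.05, 0 in DESeq2; 10.4% of all genes). The other genes of substantial level had negative values at 12 h. Cnn2 went from 38.3 and 37.9 to 26.9 and 34.3 CPM on soft gels (-0.33 ± 0.11 against 0 h, adjusted p = 0.052) and from 37.7 and 36.8 to 29.4 and 33.7 CPM on stiff gels (-0.24 ± 0.11, adjusted p = 0.17). Its soft value depended on single libraries, from -0.5 (without replicate 2 at 12 h) to -0.151 when each was left out in turn. Actb, Actg1, Tpm1 and Flna gave -0.20, -0.12, -0.12 and -0.13 on soft gels and -0.16, -0.09, -0.19 and -0.18 on stiff gels, with SE of 0.08 to 0.10 and adjusted p of 0.13 to 0.51.

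**Figure D4:**
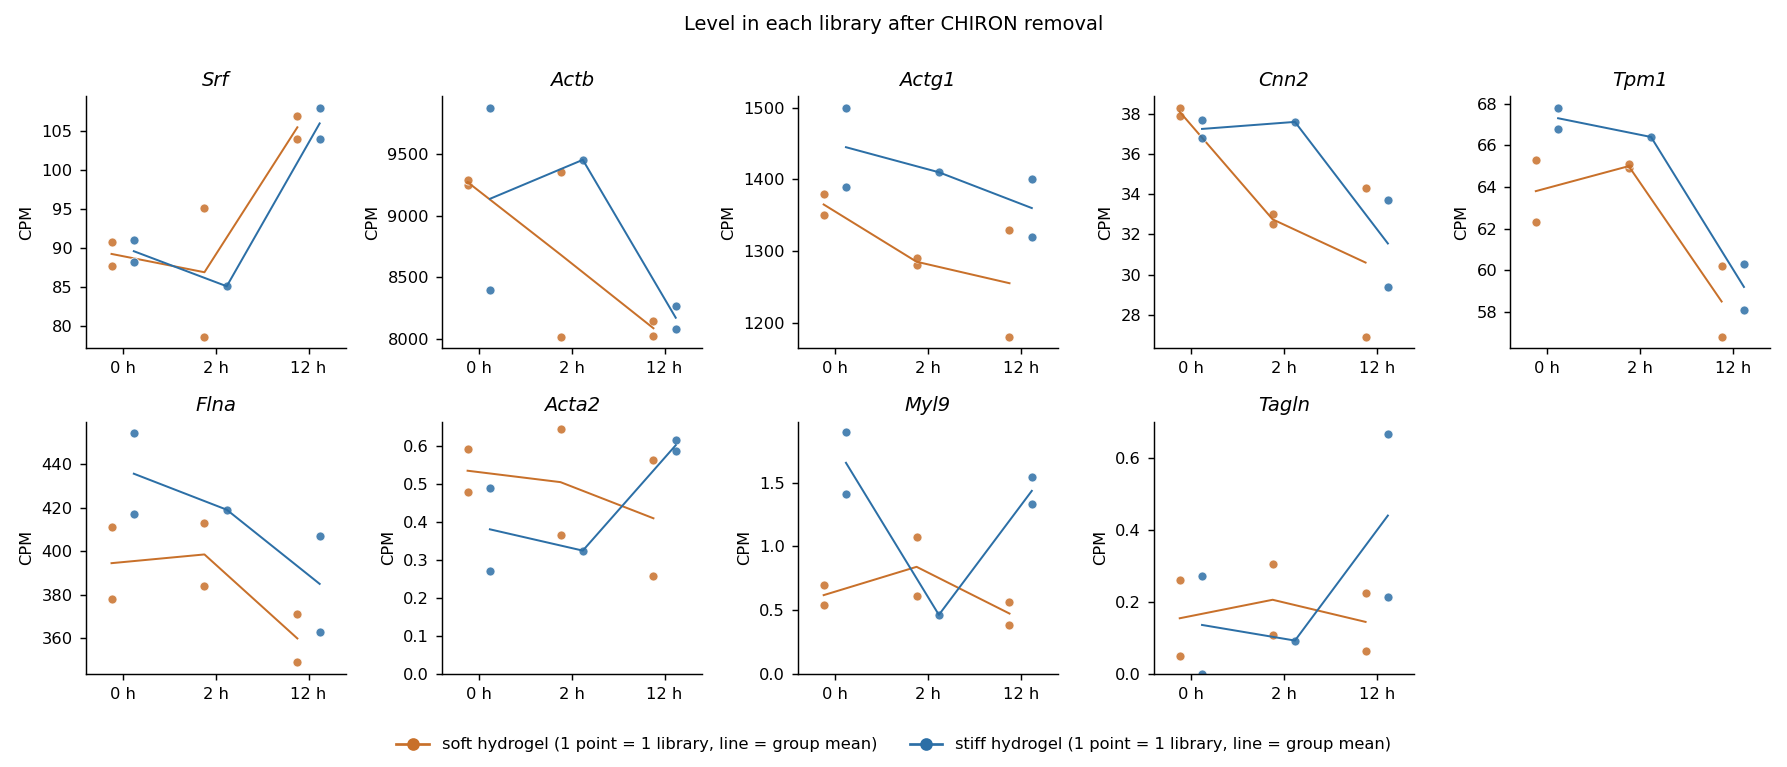
Level (CPM, vertical axes; those of Acta2, Myl9 and Tagln start at 0) of the 9 tested genes at 0, 2 and 12 h of CHIRON removal. Each point is 1 library on soft (orange) or stiff (blue) gels, with 1 stiff library at 2 h, and lines join group means; Srf is highest at 12 h on both gels, and Myl9 is separate between the gels at 0 and 12 h but below 2 CPM throughout.

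The same comparison of soft with stiff gels was made for CHIRON removal. At each of 0, 2 and 12 h 0 of 9 genes and 0% of all genes passed, in DESeq2 as well; at an unadjusted p under 0.05 the counts over all genes were 508, 838 and 471, and among the 9 they were 1, 0 and 1. Averaged over the 3 times 0 of 9 and again 0% of all genes passed (1025 genes and 1 of the 9 unadjusted). Differences in response between the gels passed for 0 of 9 and 0% of genes at 2 h (452 genes and 1 of the 9 unadjusted, 0 in DESeq2) and for 0 of 9 and 0% at 12 h (415 and 0 unadjusted, 0 in DESeq2). With no gene called at all, these counts do not show that the gels acted alike. At 0 h the libraries of Actg1, Myl9, Tpm1 and Flna were lower on soft than on stiff gels without overlap, and those of Cnn2 were higher. The share of all tested genes with such separate groups was not counted here either, so these separations do not show that the gels differed. The unadjusted gene was Myl9 each time. This regulatory light chain of non-muscle and smooth muscle myosin had 11 and 16 counts on soft gels at 0 h (0.541 and 0.694 CPM) against 26 and 35 on stiff gels (1.41 and 1.9 CPM), a log2 fold change of -1.41 ± 0.47. At 12 h it had 15 and 6 counts on soft gels (0.562 and 0.384 CPM) and 30 and 25 on stiff gels (1.54 and 1.33 CPM), or -1.54 ± 0.49. The adjusted p was 1 at both times. At 2 h the order was turned, with 0.609 and 1.07 CPM on soft gels and 0.463 CPM in the lone stiff library (0.86 ± 0.66, adjusted p = 0.84). Fibroblast markers summed to 13.1 to 27.4 CPM on soft and 12.8 to 22.2 CPM on stiff gels in this experiment, and their part in the Myl9 values was not tested. For Srf the soft against stiff values were -0.01 ± 0.09, 0.03 ± 0.11 and -0.01 ± 0.09 at the 3 times.

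**Figure D5:**
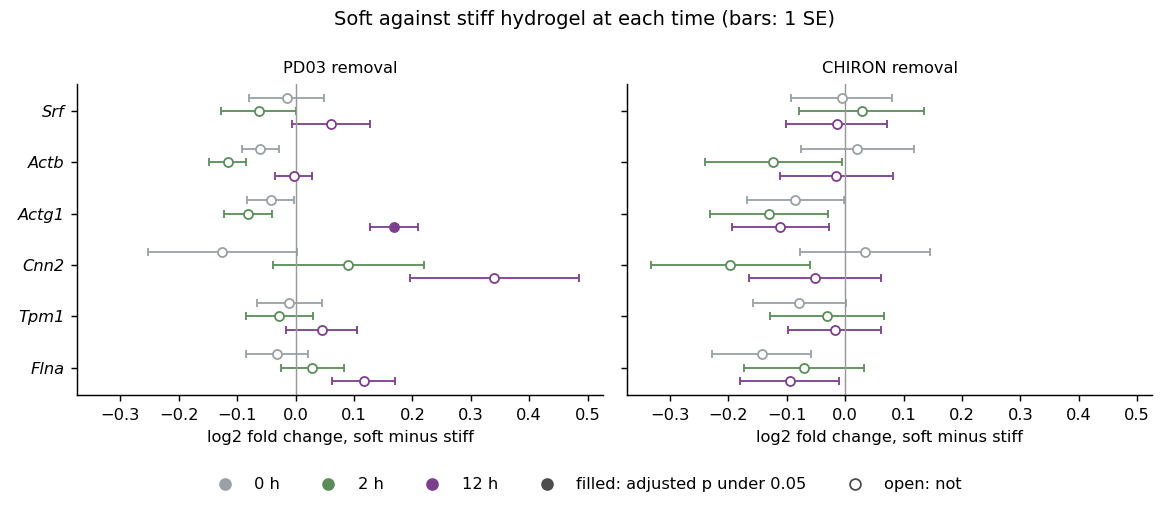
Log2 fold change of soft against stiff gels (horizontal axes) for 6 genes at 0 h (grey), 2 h (green) and 12 h (purple) of each removal. Bars are 1 SE and the filled point passed an adjusted p of 0.05; Actg1 at 12 h of PD03 removal is that point, and the values of CHIRON removal lie between -0.20 and 0.03.

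Acta2 and Tagln were tested after CHIRON removal but rested on 4 to 15 and 0 to 13 counts per library. The filter follows the smallest group, here 1 library, and Tagln was no longer tested when it followed pairs of libraries. Their log2 fold changes had SE of 0.42 to 2.05, and none passed. Tagln shares 62.4% of its exon bases with the antisense gene Gm48529 and 5.4% with Pcsk7 on the opposite strand. Whether the counting used strand is not given in the sources used here, so the reads of these genes cannot be told apart. Cnn1 had 0 to 5 counts per library and was not tested.

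The responses to the 2 removals were then set against each other, each relative to its own 0 h and averaged over both gels, in 1 fit of 23 libraries and 14753 genes. At 2 h the response to PD03 removal was higher for 2 of the 7 genes tested in both experiments, where 3.48% of all genes differed in either direction: Srf by 0.33 ± 0.08 on the log2 scale (adjusted p = 0.018) and Actg1 by 0.23 ± 0.06 (adjusted p = 0.045). At 12 h it was lower for 3 of the 7, where 36.1% differed: Srf by -0.26 ± 0.08 (adjusted p = 0.0079), Actg1 by -0.41 ± 0.06 (adjusted p = 5.7e-06) and Tpm1 by -0.20 ± 0.06 (adjusted p = 0.018). Not called at 12 h were Cnn2 (-0.05 ± 0.12, adjusted p = 0.8) and Flna (-0.02 ± 0.08, adjusted p = 0.88). Nor were Actb (0.12 ± 0.07, adjusted p = 0.15) and Acta2 (-0.71 ± 0.39, adjusted p = 0.17). Tagln and Myl9 entered this fit through the libraries of CHIRON removal and had too few counts after PD03 removal to be compared. Srf differed between the removals at both times and in opposite directions. Neither 12 h difference of Srf or Actg1 was lost without any 1 of 16 libraries. The Srf difference at 2 h was lost without replicate 1 of soft gels at 0 h of PD03 removal (adjusted p = 0.052), that of Actg1 at 2 h without 10 of 14 libraries in turn (adjusted p up to 0.12), and that of Tpm1 without replicate 1 of soft gels at 12 h of PD03 removal (adjusted p = 0.058) or replicate 2 of soft gels at 0 h of CHIRON removal (adjusted p = 0.053), and also with no filter on low counts (-0.19, adjusted p = 0.056). The removal and the experiment cannot be told apart, although each response is taken within its own experiment. Markers of cell state differed as well. At 2 h the response to PD03 removal was higher for 3 of 8 embryonic stem cell markers and lower for 1 of 5 tested fibroblast markers. At 12 h it was higher for 3 of 4 primitive streak markers, and for embryonic stem cell markers it was lower for 5 of 8 and higher for 2. It was also higher at 12 h for 1 of 5 fibroblast and 1 of 5 primitive endoderm markers. The part of these markers in the differences was not tested.

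Genes that act on SRF were examined as a list of 20, of which 19 were tested in both experiments. At 2 h of PD03 removal 1 of the 19 fell on either gel and none rose, where 1.96% of all genes were called on soft and 2.73% on stiff gels: Rhob, a small GTPase gene, dropped by 0.52 on the log2 scale on soft gels (adjusted p = 0.014) and by 0.65 on stiff gels (adjusted p = 0.00049). The next in the list by p were Limk1 (-0.14, adjusted p = 0.58) and Rhoa (-0.08, adjusted p = 0.63) on soft gels, and Pfn1 (0.15, adjusted p = 0.091) and Mkl1 (0.25, adjusted p = 0.38) on stiff gels. At 12 h 7 rose and 6 fell on soft gels (29.4% of all genes called) and 8 rose and 5 fell on stiff gels (38.4%). Among them the formin gene Diaph3 fell on both gels (by 0.43, adjusted p = 1.1e-06, and by 0.33, adjusted p = 4.1e-05), Rhoa fell on soft gels (by 0.21, adjusted p = 0.002), and Mkl1, which encodes MRTF-A, rose on soft gels (0.61, adjusted p = 0.00021). On stiff gels Limk1 rose (0.41, adjusted p = 0.00021) and Limk2 fell (by 0.27, adjusted p = 0.00033); both encode kinases of cofilin. At 12 h of CHIRON removal 3 rose and 2 fell on soft gels (17.8% of all genes called) and 4 rose and 1 fell on stiff gels (16.8%), shares of the list of the same order as the background. Rhob then rose, by 1.51 on soft gels (adjusted p = 4.5e-08) and 1.03 on stiff gels (adjusted p = 4.3e-06), as did Rhoc (0.78, adjusted p = 0.00031, and 0.79, adjusted p = 0.00042). Cfl1 (cofilin) fell on soft gels (by 0.32, adjusted p = 0.0092), and Diaph1 rose on stiff gels (0.32, adjusted p = 0.0078).

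A second list held 28 other cytoskeletal SRF targets, 25 of them tested after PD03 removal. At 2 h 3 rose on soft and 4 on stiff gels and none fell, beside 1.96% and 2.73% of all genes called, with median log2 fold changes of 0.098 and 0.105. On soft gels the 3 were the adhesion genes Vcl (vinculin, 0.30, adjusted p = 0.0013) and Zyx (zyxin, 0.65, adjusted p = 0.046) and the actin disassembly cofactor gene Wdr1 (0.19, adjusted p = 0.018). On stiff gels the first by p were Zyx (1.16, adjusted p = 1.8e-05), the alpha-actinin gene Actn4 (0.28, adjusted p = 0.00057) and Wdr1 (0.23, adjusted p = 0.0018). Zyx moved from 4.43 and 4.5 CPM to 7.62 and 6.36 CPM on soft gels and from 4.81 and 3.82 to 9.71 and 9.42 CPM on stiff gels. At 12 h 3 rose and 9 fell on soft gels (29.4% of all genes called) and 5 rose and 11 fell on stiff gels (38.4%). Tpm4, another tropomyosin gene, fell on both gels (by 0.51, adjusted p = 1.1e-08, and by 0.72, adjusted p = 7.5e-12), as did Csrp1 on soft gels (by 0.48, adjusted p = 2.5e-08) and Wdr1 on stiff gels (by 0.51, adjusted p = 4.5e-10). Actn4 rose on soft gels (0.53, adjusted p = 2.1e-09), and Zyx on stiff gels stood higher still than at 2 h, at 15.3 and 14.1 CPM (1.78 against 0 h, adjusted p = 3.3e-10). Between 2 and 12 h 3 rose and 11 fell on soft gels (31.4%) and 4 rose and 13 fell on stiff gels (37.5%). After CHIRON removal 0 of 26 passed at 2 h on either gel (0.226% of all genes on soft and 0.103% on stiff gels), and at 12 h 2 rose and 5 fell on soft gels (17.8%) and 3 rose and 7 fell on stiff gels (16.8%). In neither experiment did any of the list pass between soft and stiff gels. Over all tested genes 0.0298%, 0.134% and 0.767% passed at 0, 2 and 12 h of PD03 removal, and 1.88% over the mean of these times. After CHIRON removal 0% passed each time. At such shares these counts do not show that the gels acted alike on the list.

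The third list, early genes driven by SRF with its ERK-regulated TCF partners, held 8 genes, 6 of them tested. At 2 h of PD03 removal 4 of 6 rose on soft and 5 of 6 on stiff gels, beside 1.96% and 2.73% of all genes called. Fos, a transcription factor gene of this class, rose by 1.62 ± 0.23 on soft gels (adjusted p = 3.3e-05) and 2.80 ± 0.21 on stiff gels (adjusted p = 2e-10), and Junb by 0.98 ± 0.13 (adjusted p = 6.9e-06) and 1.40 ± 0.12 (adjusted p = 2.1e-09). Egr1 averaged 0.0951 and 0.13 CPM on the respective gels at 0 h, at or below the worth of 3 counts, and 23 and 57.6 CPM at 2 h. Between the gels at 2 h, 2 of 6 were lower on soft gels, Egr1 at -1.33 ± 0.14 on the log2 scale (adjusted p = 1.6e-06) and Fos at -0.93 ± 0.18 (adjusted p = 0.022), where 0.134% of all genes passed. Averaged over the 3 times 1 of 6, Ier2, was lower on soft gels (-0.16 ± 0.04, adjusted p = 0.025; 1.88% of all genes). The difference in response between the gels at 2 h had an adjusted p of 0.99 in edgeR for each of the 6. Over all genes 0.00745% were called in this comparison. Fos was at -1.18 ± 0.33, and the median of the 6 was -0.73. The larger fold changes on stiff gels are thus not shown to differ from those on soft gels, nor to be alike. At 2 h of CHIRON removal 0 of 6 passed on either gel (0.226% of all genes on soft and 0.103% on stiff gels).

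Among all tested genes whose RefSeq promoter window held a CArG box, 159 were measured after PD03 removal. At 2 h 3.77% of them were called higher and 0.629% lower on soft gels, and 5.66% and 1.26% on stiff gels; of the 10075 genes without a box the shares were 1.12% and 0.586%, and 1.62% and 0.913%. Their median log2 fold change was -0.01 on soft and 0.017 on stiff gels. At 12 h 32.7% and 43.4% of genes with a box were called in either direction, beside 28.8% and 38.3% of genes without. After CHIRON removal 0 of 174 genes with a box passed at 2 h on either gel, beside 0.23% (soft) and 0.12% (stiff) of the 10875 genes without, so no contrast with PD03 removal can be read from this count. These shares are descriptions of a list drawn up after the results were known, and no test was run on them.

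Across the 23 libraries, with the mean of each experiment taken out, the course of Actg1 was most like that of Wdr1 (Pearson r = 0.973 of log2 CPM), Tpm4 (0.970) and Zscan4f (0.959), the first pair being members of the list of other cytoskeletal targets. Flna was close to Heatr5b (0.912) and Vcl (0.902). Srf was most like Sox2 (0.898), Eif4a1 (0.864) and Tgif1 (0.863), Actb most like Papd4 (0.879), Myl12a (0.849) and Arid5b (0.846), Cnn2 most like Crygd (0.863), Slc23a2 (0.854) and Sgk1 (0.852), and Tpm1 most like Ubxn2a (0.937), S100a13 (0.931) and Clcn5 (0.927). For Acta2, Tagln and Myl9, with few counts, the highest values were 0.733 (Otud6b), 0.717 (Gm20605) and 0.743 (Zkscan6). Within the set, Srf and Actb had r = 0.91 over the 12 libraries of PD03 removal and -0.34 over the 11 of CHIRON removal. Actg1 and Tpm1 had 0.97 and 0.44, and Srf and Tpm1 had 0.64 and -0.74. These libraries share their groups and the inhibitors removed, so the values describe common courses and carry no test.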

How the data were processed

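RNA of 24 libraries was prepared with Ribozero and Nextflex kits. The authors trimmed reads with Trim Galore, aligned them to GRCm38/mm10 with TopHat2 2.1.0 and deposited raw counts per gene from featureCounts 1.5.0 with Ensembl annotation; DESeq2 is also named in their processing notes. In the table of PD03 removal 12 further columns of another medium were not used. Genes were matched to GENCODE M21 for class, position and exon length (34889 of 35022 and 48349 of 48709 genes matched). Protein-coding genes (19321 and 21695) with enough counts (filterByExpr, minimum count 10, minimum total 15) were scaled by TMM and tested with glmQLFTest in edgeR 4.0.16 (R 4.3.3), all 6 groups of an experiment in 1 fit with no block, and all 23 libraries in 1 fit for the difference between removals. The test was tried on simulated data, but the outcome is not given here and no result rests on it. CPM are counts per 1000000 of the scaled total of tested genes. Promoter windows came from RefSeq (GRCm38.p6).

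The 10 genes and the lists were chosen with earlier results of these data known. Named were all 10 genes, the 3 genes of each list with the smallest p in a comparison described, and the 3 genes most like each member (only the first for Acta2, Tagln and Myl9; 1 gene is not reported here). Alternatives were DESeq2 1.42.0, other scalings, no filter, all gene classes, only the groups compared, the discarded library kept, a replicate block and each library left out. Libraries with the same replicate number did not deviate together (mean r of -0.00277 and -0.0198).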

Additional observations from a re-analysis of the deposited data

Results flagged for a closer look

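The response to PD03 removal differed from that to CHIRON removal by the test of the difference itself in 5 values, on the log2 scale as PD03 removal minus CHIRON removal. Srf differed by 0.33 at 2 h and by -0.26 at 12 h. Actg1 differed by 0.23 at 2 h and by -0.41 at 12 h. Tpm1 differed by -0.20 at 12 h. Groups of 2 libraries are too small for a test of single outlying libraries.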

How the results depend on the processing

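Of the values of single genes under other settings, 2768 stayed on their side of the threshold, 71 no longer passed and 22 newly passed. The sign changed in 153, and in 0 of these did the value pass in either fit. With DESeq2 the count on soft gels at 2 h of PD03 removal went from 3 to 0, with total counts alone to 1 and with all gene classes to 0. With all gene classes the soft against stiff count at 12 h went from 1 to 0, and with no low-count filter Actb passed between the gels at 2 h (1 gene) and over the mean of the 3 times (1 gene).

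After CHIRON removal, Srf passed at 12 h against 0 h with total counts alone on soft (1 gene) and stiff gels (1), with the filter on pairs of libraries, an alternative chosen after seeing the data, on soft (1) and stiff gels (1), and on soft gels with only the groups compared (1); without the low-count filter 2 genes, Srf and Cnn2, passed there. On stiff gels against 2 h 1 gene, Srf, passed with total counts alone, without the filter and with only the groups compared. The Srf call on soft gels against 2 h went to 0 with only the groups compared and with the discarded library kept.

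The difference between removals at 2 h went from 2 genes to 1 with total counts alone and with all gene classes, and to 0 with the discarded library kept; that library also took the count at 12 h from 3 to 0. The replicate block, which the correlations above do not call for, left 1 gene in the difference between removals at 2 h and 0 genes for soft gels at 12 h against 2 h of CHIRON removal, and moved no other count of members by over 1.5 times.

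Leaving out 1 library gave 0 each time for soft against stiff gels at 12 h and for soft gels at 2 h of PD03 removal, and ranges of 1 to 3 for stiff gels at 2 h, 0 to 1 for soft gels at 12 h of CHIRON removal against 0 h and against 2 h, and 0 to 3 for the difference between removals at 2 h. The causes were not tested. Depth limits Cnn1, Tagln, Myl9 and, after CHIRON removal, Acta2.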
